A study of Homo sapiens with 6 samples.

Results

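The genes described here encode the Sm and LSm proteins, other proteins of the spliceosomal small nuclear ribonucleoproteins (snRNPs), and the SMN complex that assembles them. They are 38 of the 58735 genes in the deposited table, found by gene name: SNRPA, SNRPA1, SNRPB, SNRPB2, SNRPC, SNRPD1, SNRPD2, SNRPD3, SNRPE, SNRPF and SNRPG, the SNRNP genes 70, 200, 40, 27, 25, 35 and 48, LSM1 to LSM8, LSM10, LSM11 and LSM14A, and SMN1, SMN2, GEMIN2, DDX20 and GEMIN4 to GEMIN8. RNA was sequenced from cells labelled BxPC-3, a human pancreatic adenocarcinoma line, in 3 libraries from cells given GSK3326595, a small-molecule inhibitor of the arginine methyltransferase PRMT5, and in 3 libraries of the control group, titled DMSO, the usual solvent of such compounds. A knockdown is named in the series' design text, whereas the label of each treated library names the inhibitor, and the labels were followed. The sources used here give neither dose nor duration. Levels are FPKM, reads per kilobase of the listed gene length divided by a size for each library. That size came from the authors' scaling and was not equal to the number of reads held by the library. Differences are inhibitor over DMSO after taking log2(FPKM + 1), a scale that makes the change of low genes look smaller than it is.

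Sm proteins form a ring of 7 different subunits around the U1, U2, U4, U5, U11, U12 and U4atac small nuclear RNAs, and related LSm proteins form the rings of U6 and of the cytoplasmic mRNA decapping machinery. PRMT5, working with WDR77 and the chaperone encoded by CLNS1A, places symmetric dimethyl marks on arginines in the arginine-glycine tails of the products of SNRPB, SNRPD1 and SNRPD3, and the SMN protein binds those tails before the ring is loaded on the RNA. An inhibitor of PRMT5 acts on the modification of these proteins, whereas the libraries measure the RNA of their genes. The comparison therefore asks whether the messages of the substrates, of their ring partners and of the assembly machinery differed when PRMT5 was inhibited.

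The libraries held 14087260 to 15724750 reads, recovered as whole numbers from the FPKM values. Inhibitor replicate 2 stood apart: its mitochondrial share of reads was 11.3%, against 5.84% and 6.03% in the other inhibitor libraries and 4.70% to 5.01% in DMSO (95% Wilson intervals within 0.0166 percentage points, counting error only). Nuclear protein-coding genes shorter than 1500 bases took 1.09% of its coding reads, against 2.27% to 2.61% in the other 5 libraries (Wilson intervals within 0.00840 percentage points). Many Sm and LSm genes are short, so results below are also given without this library. Whether these mitochondrial and short-gene shares have a part in a result was not tested. No label states that replicates are separate cultures, so each p-value refers to the spread between libraries, which may be technical. Of 9 markers of pancreatic ductal epithelium, KRT19, CEACAM6 and ESRP1 had 0 reads in all 6 libraries (3 reads over them would be 0.0141, 0.0108 and 0.00675 FPKM), and EPCAM and CDH1 stayed under 0.5 FPKM. KRT7, KRT8, KRT18 and MUC1 were present in every library, and the summed level of the 9 markers was 788 to 1040.2 FPKM with the inhibitor and 672 to 751 FPKM in DMSO. KRT8, KRT18 and MUC1 were higher in every inhibitor library than in any DMSO library, whereas KRT7 was lower, at 101 to 105 FPKM with the inhibitor and 154 to 177 FPKM in DMSO. CDKN2A, a locus known as deleted in BxPC-3 together with SMAD4, stood at 61.0, 24.7 and 64.7 FPKM in the inhibitor libraries, against 108, 95.6 and 118 FPKM in the DMSO libraries, so the name BxPC-3 is used here as a label. SMAD4 stood at 2.61, 3.63 and 2.82 FPKM in the inhibitor libraries, against 3.67, 3.90 and 3.34 FPKM in the DMSO libraries. Of the markers of other cells, 4 fibroblast genes summed to 10.2 to 15.4 FPKM with the inhibitor and 5.09 to 5.68 FPKM in DMSO with COL1A2 at 0. Likewise 3 leukocyte genes summed to at most 0.0974 and 0.309 FPKM with CD3E at 0, and 2 endothelial genes to at most 0.643 and 1.39 FPKM. Their part in the results was not tested.

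All 38 genes reached 1 FPKM in at least 3 of the 6 libraries and were tested. With all libraries 3 of them had lower levels with the inhibitor at an adjusted p below 0.05 (limma, two-sided, 13578 genes adjusted together by Benjamini-Hochberg), namely SNRPF, SNRPG and LSM11, and 0 were higher (limma; 0 higher also with limma-voom on the recovered reads). At an unadjusted p under 0.05 (limma) 6 were lower, or 15.8%, and 0 higher, against 20.0% and 14.6% of all genes tested. The 3 called lower at an adjusted p below 0.05 were 7.89% of the 38. The background was 10.0% of all genes tested called lower and 7.18% called higher, 17.2% in either direction. Without inhibitor replicate 2 the counts were 9 lower and 3 higher, or 23.7% and 7.89%, against 23.1% and 17.5% of all genes. Leaving out inhibitor replicate 1 gave 1 lower, SNRPF, against 4.79% of all genes called lower in that fit. Leaving out inhibitor replicate 3 gave 0 (limma), against 5.85% of all genes. Leaving out DMSO replicate 1, 2 or 3 gave 0 (limma), against 1.94%, 2.1% and 2.33%. The share called lower was near the background both with all libraries and without inhibitor replicate 2, the pair of fits meant by "either fit" hereafter, and the share called higher was under it. The 38 genes had a median log2 fold change of −0.32, against −0.055 over all genes tested, and 32 of them lay below 0; without inhibitor replicate 2 the medians were −0.15 and −0.051. In 15 of the 38 (39.5%) every inhibitor library lay below every DMSO library, against 26.7% of all genes tested, and in 1, GEMIN4, every inhibitor library lay above (2.63%, against 19.2%). The groups did not overlap in 45.9% of all genes tested. Fewer cells that use a gene and less of its RNA per cell cannot be told apart in such bulk libraries.

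**Figure D1:**
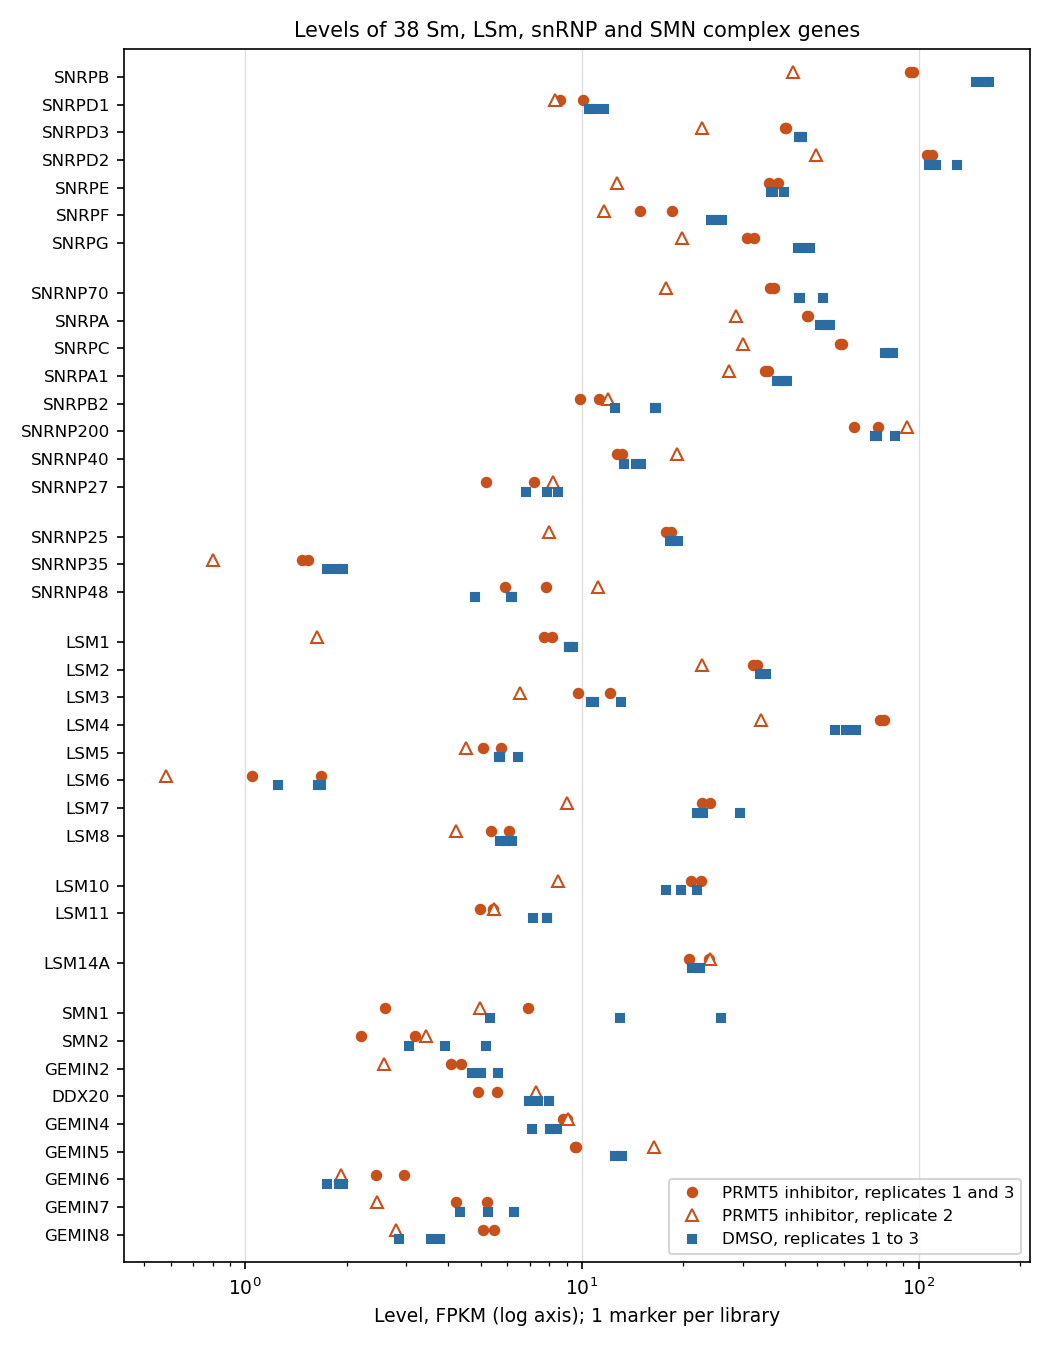
Level of each of the 38 genes in each library, in FPKM on a log axis, grouped by complex. Markers in the upper line of each row are inhibitor libraries (open triangle, replicate 2) and squares are DMSO libraries. For SNRPB, SNRPF, SNRPG and LSM11 all inhibitor markers lie left of all DMSO markers, and for LSM1, LSM4 and SNRPE the triangle lies far from both circles.

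In DMSO the family spanned 1.52 FPKM for LSM6 to 156 FPKM for SNRPB, which lay above 98.5% of all genes tested. SNRPD2, SNRPC, SNRNP200 and LSM4 followed at 117 ± 11.96, 81.8 ± 2.26, 78.0 ± 6.11 and 60.8 ± 4.51 FPKM (SD, n = 3). SNRPC and SNRNP200 did not differ in this order beyond their spread. The genes of the minor spliceosome ran from 1.86 ± 0.104 FPKM for SNRNP35 to 18.7 ± 0.580 FPKM for SNRNP25 (SD, n = 3). Those of the SMN complex ran from 1.86 ± 0.103 FPKM for GEMIN6 to 14.7 ± 10.4 FPKM for SMN1 (SD, n = 3). In all, the 38 genes took 0.296%, 0.234% and 0.299% of the reads of the inhibitor libraries, against 0.327%, 0.331% and 0.337% in DMSO (95% Wilson intervals within 0.00299 percentage points). Every inhibitor library was below every DMSO library in this share, and replicate 2 was the lowest.

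All 7 Sm ring genes had log2 fold changes below 0, with a median of −0.51, and 2 of them, SNRPF and SNRPG, were called lower with all libraries (28.6%, against 10.0% of all genes tested). Without inhibitor replicate 2 the count was 3, with SNRPB (42.9%, against 23.1%). SNRPB, which encodes the SmB and SmB′ proteins (ENSG00000125835, chromosome 20, 2461634 to 2470853, hg38, minus strand), stood at 94.4, 42.4 and 96.2 FPKM in the inhibitor libraries, against 161, 148 and 158 FPKM in the DMSO libraries. The inhibitor mean was 49.9% of the DMSO mean, the groups did not overlap, and the lowest value was that of replicate 2 (log2 fold change −1.08, SE 0.32, limma adjusted p = 0.0630). SNRPB was not called with all libraries. It was called at −0.70 without inhibitor replicate 2 (limma adjusted p = 0.000863), at −0.94 once the trend of each library on gene length was removed (limma adjusted p = 0.0220), and at −1.09 with limma-voom on recovered reads (limma adjusted p = 0.0429). Of the 19 alternatives run 6 called SNRPB. When each library was left out in turn it was called without inhibitor replicate 2 only (highest limma adjusted p, 0.180). SNRPB shares 20.03% of its exon bases with AL049650.1 on its own strand, a gene with a mean of 0 FPKM. How reads in the shared bases were divided is uncertain. SNRPF (chromosome 12, 95858928 to 95903828), the SmF gene, stood at 18.5, 11.6 and 14.9 FPKM in the inhibitor libraries, against 24.2, 25.1 and 26.0 FPKM in the DMSO libraries. It fell to 15.0 ± 3.48 FPKM with the inhibitor, against 25.1 ± 0.872 FPKM in DMSO (SD, n = 3 each). The log2 fold change was −0.73 (SE 0.17, limma adjusted p = 0.0350), and −0.57 without inhibitor replicate 2 (limma adjusted p = 0.00760). SNRPG (chromosome 2, 70281362 to 70293771), the SmG gene, stood at 30.9, 19.8 and 32.3 FPKM in the inhibitor libraries, against 46.2, 47.4 and 43.6 FPKM in the DMSO libraries. It fell with a log2 fold change of −0.74 (SE 0.20, limma adjusted p = 0.0494), and −0.52 without inhibitor replicate 2 (limma adjusted p = 0.00230). In both genes all inhibitor libraries lay below all DMSO libraries, but when each library was left out in turn SNRPF was called without inhibitor replicate 1 or 2 and SNRPG without inhibitor replicate 2 only (highest limma adjusted p over the 6 fits, 0.126 and 0.161). SNRPG has 20 named pseudogenes in the table with 581 reads beside its own 6037, so how its reads were divided is uncertain.

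The stretch of 250 bases before the RefSeq start (GRCh38.p14) is shown for SNRPF and LSM11, 2 of the 3 called genes. It is also shown for SNRPB, the gene with the highest level, and not for SNRPG, the other called gene. Capitals mark matches on either strand to CCGGAAGT, the core bound by ETS factors, to CCAAT, and to CACGTG, the E-box bound by MYC.
SNRPB, chr20:2470790-2471039, minus strand: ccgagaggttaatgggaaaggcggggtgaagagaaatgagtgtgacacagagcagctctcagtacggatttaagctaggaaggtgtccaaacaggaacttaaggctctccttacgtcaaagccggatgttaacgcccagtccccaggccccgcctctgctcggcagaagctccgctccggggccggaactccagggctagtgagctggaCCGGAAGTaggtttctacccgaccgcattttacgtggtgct
SNRPF, chr12:95858702-95858951, plus strand: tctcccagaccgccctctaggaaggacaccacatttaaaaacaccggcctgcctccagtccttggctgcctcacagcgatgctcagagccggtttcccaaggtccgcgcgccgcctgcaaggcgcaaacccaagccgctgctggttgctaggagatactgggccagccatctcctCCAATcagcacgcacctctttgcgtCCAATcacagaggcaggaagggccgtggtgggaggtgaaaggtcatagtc
LSM11, chr5:157743462-157743711, plus strand: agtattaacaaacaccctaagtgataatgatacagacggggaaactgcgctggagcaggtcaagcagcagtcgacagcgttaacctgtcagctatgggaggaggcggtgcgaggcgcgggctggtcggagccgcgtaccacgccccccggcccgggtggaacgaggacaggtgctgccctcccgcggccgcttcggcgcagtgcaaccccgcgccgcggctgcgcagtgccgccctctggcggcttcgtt
The stretch of SNRPB held CCGGAAGT with its first base 41 bases before the start, and that of SNRPF held CCAAT 75 and 50 bases before the start. LSM11 held none of the 3 motifs in this window. Of the 38 genes 31 matched an entry; in the first listed start of each, CCGGAAGT was found in 5 (16.1%, against 3.42% of all 35116 promoters of the same length), CCAAT in 14 (45.2%, against 32.0%) and CACGTG in 2 (6.45%, against 6.34%). The genes with CCGGAAGT were SNRPB, SNRPE, SNRPA1, SNRNP27 and GEMIN8. The 35116 promoters include every listed start and were not limited to expressed genes, so they are not a matched background. These are counts of letters, and binding was not measured.

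The remaining Sm ring genes were not called in either fit. SNRPD1, the SmD1 gene, stood at 10.1, 8.29 and 8.59 FPKM in the inhibitor libraries, against 11.6, 10.9 and 10.5 FPKM in the DMSO libraries (log2 fold change −0.27, SE 0.12, limma adjusted p = 0.159). SNRPD3, the SmD3 gene, stood at 40.4, 22.7 and 40.1 FPKM in the inhibitor libraries, against 44.1, 44.4 and 45.1 FPKM in the DMSO libraries (log2 fold change −0.41, SE 0.23, limma adjusted p = 0.257). In both the groups did not overlap, although in SNRPD3 the size rested on replicate 2, with −0.14 without it. SNRPD2 stood at 106, 49.6 and 109.6 FPKM in the inhibitor libraries, against 113, 107 and 130.1 FPKM in the DMSO libraries. SNRPE stood at 38.2, 12.7 and 35.9 FPKM in the inhibitor libraries, against 36.4, 39.7 and 37.0 FPKM in the DMSO libraries. For these genes of SmD2 and SmE, replicate 2 was far below the other libraries while replicates 1 and 3 reached into the DMSO range or close to it. Without replicate 2 their log2 fold changes were −0.11 and −0.024. SNRPE has 9 named pseudogenes holding 5.08% of their joint reads. SNRPD3 shares 12.03% of its exon bases with GGT1 on its own strand and 12.6% with GUCD1 on the other, and the strand setting of the counting is not known from the sources used here.

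The genes of the 3 Sm proteins that PRMT5 methylates were set beside the rest. SNRPB, SNRPD1 and SNRPD3 had a median log2 fold change of −0.41, and the other 35 genes one of −0.30. Without inhibitor replicate 2 the medians were −0.22 and −0.13. The difference was −0.11 with all libraries, ran from −0.21 to −0.0041 over the alternatives tried, and was not tested. The gap in median log2 level between the 3 genes and the other 35 had an SD of 0.26 between libraries of a group. Of the 3 genes 0 were called with all libraries (limma; SNRPB with limma-voom) and 1, SNRPB, without replicate 2. Of the other 35 genes 3 were lower with all libraries (8.57%, against 10.0% of all genes tested). Without replicate 2, 8 of them were lower and 3 higher (22.9% and 8.57%, against 23.1% and 17.5% of all genes). By summed level, the 3 genes stood at 145, 73.4 and 145 FPKM in the inhibitor libraries, against 217, 203 and 214 FPKM in the DMSO libraries. The other 4 Sm ring genes summed to 193, 93.7 and 193 FPKM in the inhibitor libraries, against 219.6, 219 and 237 FPKM in the DMSO libraries. The ratio of the 2 sums was 0.749, 0.782 and 0.752 in the inhibitor libraries, against 0.988, 0.925 and 0.903 in the DMSO libraries. The groups did not overlap, and replicate 2 lay beside replicates 1 and 3. SNRPB was the largest term of the first sum: its share of the summed FPKM of the 7 genes was 27.9, 25.4 and 28.5% in the inhibitor libraries, against 36.9, 34.95 and 35.1% in DMSO. Its level relative to SNRPD3 was 2.34, 1.87 and 2.40 in the inhibitor libraries, against 3.65, 3.33 and 3.51 in DMSO. The inhibitor mean over the DMSO mean was 0.499 for SNRPB, 0.819 for SNRPD1 and 0.772 for SNRPD3. For the sum of the other 4 ring genes it was 0.710, so the lower ratio of the 2 sums rested on SNRPB and not on SNRPD1 or SNRPD3. These ratios describe the libraries and carry no p, since they were formed over chosen genes.

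**Figure D2:**
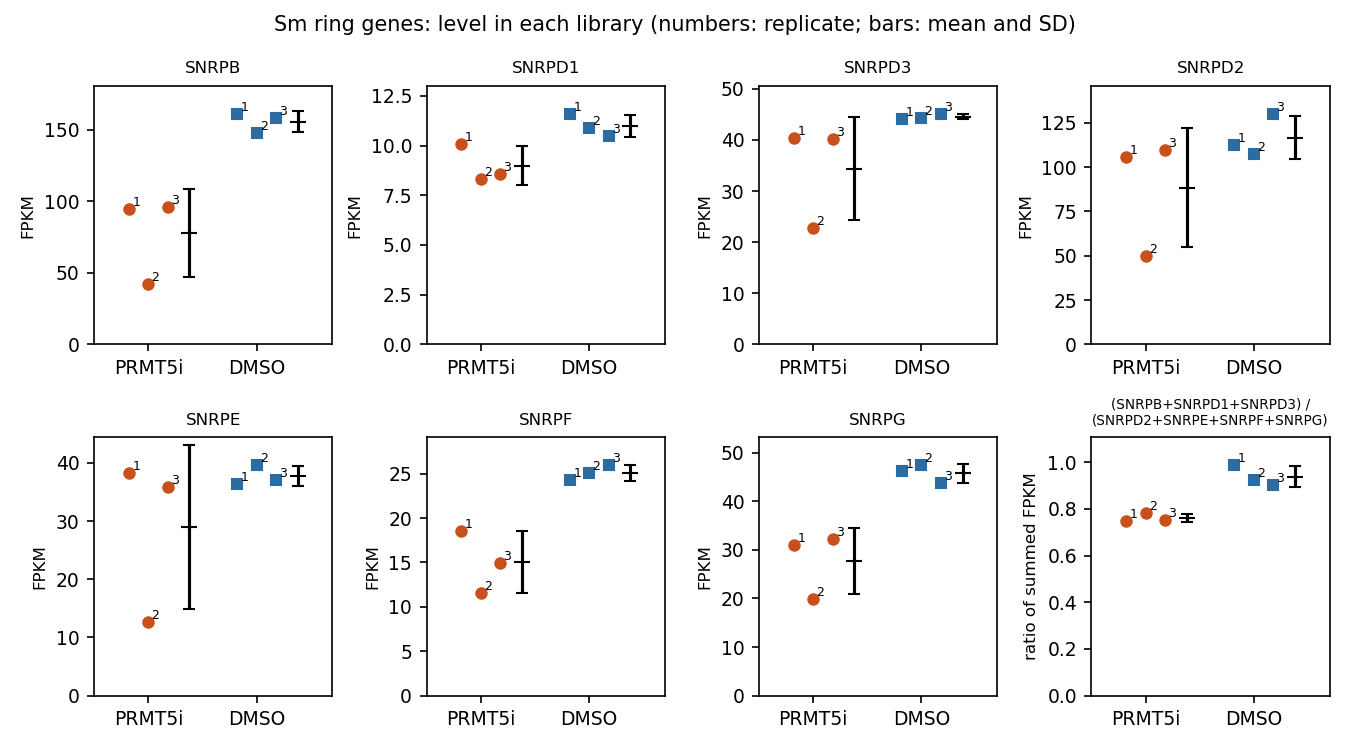
FPKM of the 7 Sm ring genes in each library (y axes from 0), with replicate numbers beside the points and the mean and SD of each group to their right; the last panel shows the ratio of the summed level of SNRPB, SNRPD1 and SNRPD3 to that of the other 4. The ratio is 0.749 to 0.782 in inhibitor libraries and 0.903 to 0.988 in DMSO libraries, while the single genes show replicate 2 as the lowest inhibitor value.

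Among the genes of proteins particular to U1, U2, U5 and the U4/U6.U5 tri-snRNP, SNRPC and SNRNP70, both of U1, had the largest differences with all libraries, and SNRPB2 and SNRPC without inhibitor replicate 2. SNRPC, which encodes U1-C, stood at 59.3, 30.1 and 58.3 FPKM in the inhibitor libraries, against 81.7, 79.5 and 84.0 FPKM in the DMSO libraries (log2 fold change −0.78, SE 0.27, limma adjusted p = 0.0908). SNRNP70, which encodes U1-70K, stood at 36.1, 17.7 and 37.1 FPKM in the inhibitor libraries, against 44.5, 44.0 and 51.9 FPKM in the DMSO libraries (log2 fold change −0.68, SE 0.29, limma adjusted p = 0.149). The groups did not overlap in either gene, and without inhibitor replicate 2 SNRPC was called at −0.47 (limma adjusted p = 0.00199) and SNRNP70 at −0.34 (limma adjusted p = 0.0248). SNRPA, which encodes U1-A, stood at 46.4, 28.6 and 47.0 FPKM in the inhibitor libraries, against 53.5, 50.8 and 54.6 FPKM in the DMSO libraries and was not called in either fit (library weights called it and SNRPA1 lower). The U2 genes SNRPB2 (U2-B″) and SNRPA1 (U2-A′) also had groups that did not overlap. SNRPB2 stood at 11.2, 11.95 and 9.86 FPKM in the inhibitor libraries, against 16.4, 16.6 and 12.5 FPKM in the DMSO libraries, and was called at −0.48 without inhibitor replicate 2 (limma adjusted p = 0.0360). For SNRPA1 the inhibitor libraries ran from 27.2 to 35.8 FPKM and the DMSO libraries from 37.9 to 40.6 FPKM.

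SNRNP200, which encodes the helicase that unwinds U4 from U6, stood at 64.0, 92.3 and 75.5 FPKM in the inhibitor libraries, against 74.9, 74.0 and 85.0 FPKM in the DMSO libraries (log2 fold change −0.026, SE 0.16, limma adjusted p = 0.924). SNRNP40, a U5 protein gene, stood at 13.1, 19.2 and 12.7 FPKM in the inhibitor libraries, against 15.0, 13.3 and 14.5 FPKM in the DMSO libraries. Here replicate 2 was the highest library rather than the lowest, and the sign of both values depended on the libraries and scaling used (below 0 without replicate 2). SNRNP27 stood at 6.86 ± 1.51 FPKM with the inhibitor and 7.72 ± 0.858 FPKM in DMSO (SD, n = 3 each). In the minor spliceosome, which removes a rare class of introns, none of the 3 genes was called in either fit (limma with all libraries and without replicate 2; of the 3, estimated library weights called SNRNP35 lower and SNRNP48 higher). SNRNP25 had the highest level of them and stood at 17.8, 7.98 and 18.3 FPKM in the inhibitor libraries, against 18.2, 18.5 and 19.3 FPKM in the DMSO libraries. SNRNP48 stood at 7.83, 11.1 and 5.90 FPKM in the inhibitor libraries, against 6.17, 6.21 and 4.803 FPKM in the DMSO libraries (log2 fold change 0.43, SE 0.22, limma adjusted p = 0.218). SNRNP35 had 55 to 151 reads a library and shares 40.1% of its exon bases with RILPL1 on the other strand, which limits what its values show.

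**Figure D3:**
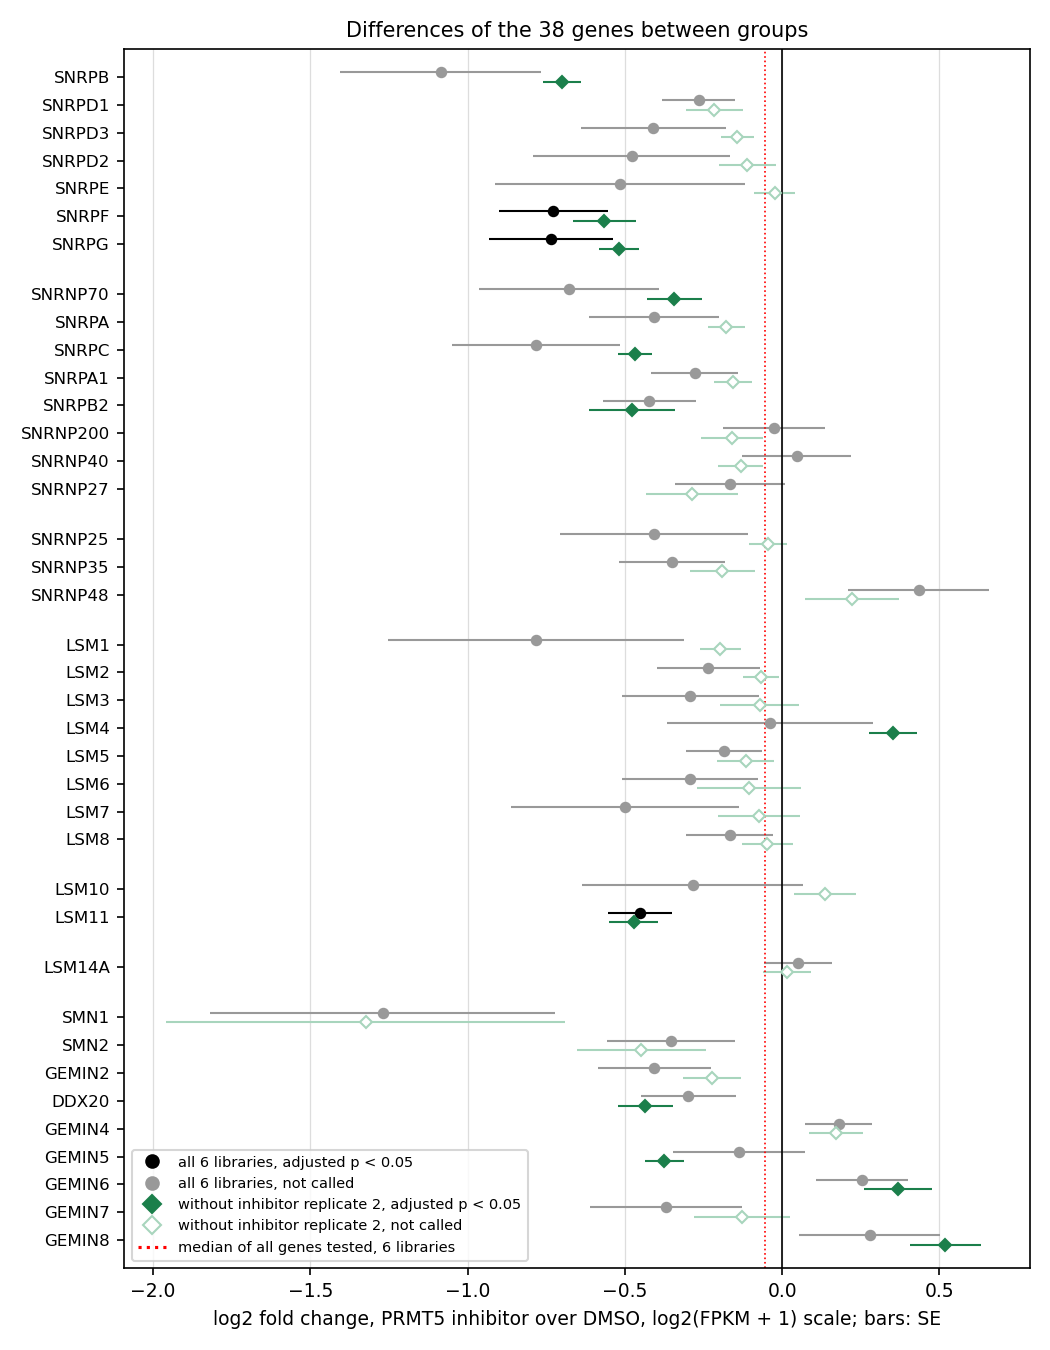
log2 fold change (inhibitor over DMSO) with SE for each gene, with all 6 libraries (circles, black where adjusted p is under 0.05) and without inhibitor replicate 2 (diamonds, filled where adjusted p is under 0.05). Leaving that library out narrows the bars of SNRPB, SNRPC, SNRNP70 and LSM4. With all libraries 3 of the genes are called, against 12 without that library. Over all genes tested 17.2% are called in either direction with all libraries and 40.6% without that library.

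The 8 genes of the LSm1-8 rings had a median log2 fold change of −0.26, against −0.51 for the 7 Sm ring genes; without inhibitor replicate 2 the medians were −0.073 and −0.22. LSM4, whose protein carries an arginine-glycine tail that is also known to bear symmetric dimethyl marks, stood at 78.6, 33.9 and 76.9 FPKM in the inhibitor libraries, against 60.9, 56.2 and 65.2 FPKM in the DMSO libraries. Replicates 1 and 3 were above every DMSO library and replicate 2 was below, so that the difference was −0.039 with all libraries (SE 0.33, limma adjusted p = 0.943) and 0.35 without inhibitor replicate 2 (limma adjusted p = 0.0144). Among the LSm1-8 genes LSM4 was the one called in that fit, in the direction opposite to SNRPB. LSM1, the subunit that sets apart the cytoplasmic decapping ring, stood at 8.16, 1.64 and 7.69 FPKM in the inhibitor libraries, against 9.12, 9.41 and 9.15 FPKM in the DMSO libraries (log2 fold change −0.78, SE 0.47, limma adjusted p = 0.283). LSM8, which takes its place in the nuclear U6 ring, stood at 6.08, 4.23 and 5.37 FPKM in the inhibitor libraries, against 5.93, 6.19 and 5.71 FPKM in the DMSO libraries. The value of LSM1 came largely from replicate 2, which had 37 reads of it; without that library it was −0.20 (limma adjusted p = 0.0570). Both rings use LSM4 as well as LSM2, LSM3, LSM5, LSM6 and LSM7. These shared subunits other than LSM4 had log2 fold changes of −0.50 to −0.19, and of −0.12 to −0.067 without replicate 2. Of the shared subunits other than LSM4 none was called in either fit (limma, and none by limma-voom either). LSM1 shares 11.7% of its exon bases with BAG4 on the other strand.

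LSM11 was the gene of the family whose value moved least with the choice of libraries among the called ones. It encodes a subunit of the ring on U7, the small nuclear RNA of histone mRNA 3′ processing, where the products of LSM10 and LSM11 replace SmD1 and SmD2. LSM11 (chromosome 5, 157743695 to 157760709) stood at 5.46, 5.48 and 4.98 FPKM in the inhibitor libraries, against 7.86, 7.87 and 7.16 FPKM in the DMSO libraries. All inhibitor libraries lay below all DMSO libraries and replicate 2 lay among the others. The gene fell with a log2 fold change of −0.45 (SE 0.10, limma adjusted p = 0.0307), and −0.47 without inhibitor replicate 2 (limma adjusted p = 0.00639). Leaving out 1 library at a time gave −0.49 to −0.41, although it was called without inhibitor replicate 2 and in none of the 5 other fits (highest limma adjusted p, 0.146). LSM10 stood at 21.1, 8.49 and 22.5 FPKM in the inhibitor libraries, against 17.8, 19.6 and 22.0 FPKM in the DMSO libraries and was not called in either fit. LSM14A, a translation and P-body factor with an LSm fold, stood at 23.7, 24.0 and 20.8 FPKM in the inhibitor libraries, against 21.2, 22.4 and 22.3 FPKM in the DMSO libraries, where the groups overlapped.

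The SMN complex genes went both ways. SMN1, the gene of the SMN protein that is lost in spinal muscular atrophy, stood at 6.89, 4.97 and 2.59 FPKM in the inhibitor libraries, against 5.33, 25.8 and 13.0 FPKM in the DMSO libraries. SMN2, its near-identical neighbour on chromosome 5, stood at 3.18, 3.45 and 2.20 FPKM in the inhibitor libraries, against 3.93, 5.19 and 3.07 FPKM in the DMSO libraries. The DMSO libraries spanned 5.33 to 25.8 FPKM in SMN1 and the groups overlapped in both genes, and neither gene was called in either fit (SMN1 log2 fold change −1.27, SE 0.55, limma adjusted p = 0.156). How reads are divided between these copies is uncertain, and their sum varied as widely, at 10.1, 8.42 and 4.79 FPKM in the inhibitor libraries, against 9.25, 31.0 and 16.05 FPKM in the DMSO libraries. DDX20 (Gemin3), a helicase, stood at 4.92, 7.30 and 5.57 FPKM in the inhibitor libraries, against 7.38, 7.96 and 6.98 FPKM in the DMSO libraries, and was called at −0.44 without inhibitor replicate 2 (limma adjusted p = 0.0117). GEMIN5, which recognises the small nuclear RNA, stood at 9.62, 16.4 and 9.54 FPKM in the inhibitor libraries, against 12.5, 12.5 and 13.1 FPKM in the DMSO libraries. In replicates 1 and 3 it lay below DMSO and in replicate 2 above, so that it was not called with all libraries and was called at −0.37 without inhibitor replicate 2 (limma adjusted p = 0.00626). GEMIN6 and GEMIN8, further subunits of the complex, were called higher without replicate 2. GEMIN6 stood at 2.97, 1.92 and 2.45 FPKM in the inhibitor libraries, against 1.95, 1.89 and 1.75 FPKM in the DMSO libraries, with 0.37 without replicate 2 (limma adjusted p = 0.0385). GEMIN8 stood at 5.49, 2.80 and 5.09 FPKM in the inhibitor libraries, against 3.56, 3.78 and 2.87 FPKM in the DMSO libraries, with 0.52 without replicate 2 (limma adjusted p = 0.0152). These are low genes, with 91 to 218 reads a library, and GEMIN8 has 3 named pseudogenes holding 13.9% of their joint reads. GEMIN2, which holds the Sm pentamer during assembly, stood at 4.09, 2.57 and 4.38 FPKM in the inhibitor libraries, against 5.63, 4.71 and 5.02 FPKM in the DMSO libraries, without overlap and without a call in either fit (library weights called it lower). GEMIN4 stood at 8.98 ± 0.159 FPKM with the inhibitor and 7.83 ± 0.675 FPKM in DMSO (SD, n = 3 each). GEMIN7 stood at 3.97 ± 1.40 FPKM with the inhibitor and 5.29 ± 0.970 FPKM in DMSO (SD, n = 3 each). Neither was called in either fit.

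The deviation of inhibitor replicate 2 varied with gene length within the family. It lay below both other inhibitor libraries for 26 of the 38 genes and above both for 11, against 46.8% and 42.2% of all genes tested. Of the 16 genes listed at under 3000 bases 14 were lower in replicate 2 than in the mean of replicates 1 and 3, with a median difference of −0.76 on the log2 scale; of the 22 longer genes 12 were lower, with a median of −0.18. Over all genes tested the medians were −0.27 and 0.068. Across the 38 genes, which share their libraries, length and this difference had a Spearman rho of 0.675, and 0.283 across the 13578 genes tested. With the length trend removed from every library 5 of the 38 were lower and 0 higher (limma; 10.8% and 10.0% of all genes), namely LSM11, SNRPB, SNRPC, SNRPF and SNRPG, and the median was −0.21. The libraries apart from replicate 2 showed the same side: the median difference from the DMSO mean was −0.12 in replicate 1 and −0.18 in replicate 3, against −0.67 in replicate 2, and 21, 28 and 28 genes of the 38 lay below all DMSO libraries in replicates 1, 2 and 3. Over all genes tested 42.9%, 46.8% and 43.7% lay below all DMSO libraries in these libraries.

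**Figure D4:**
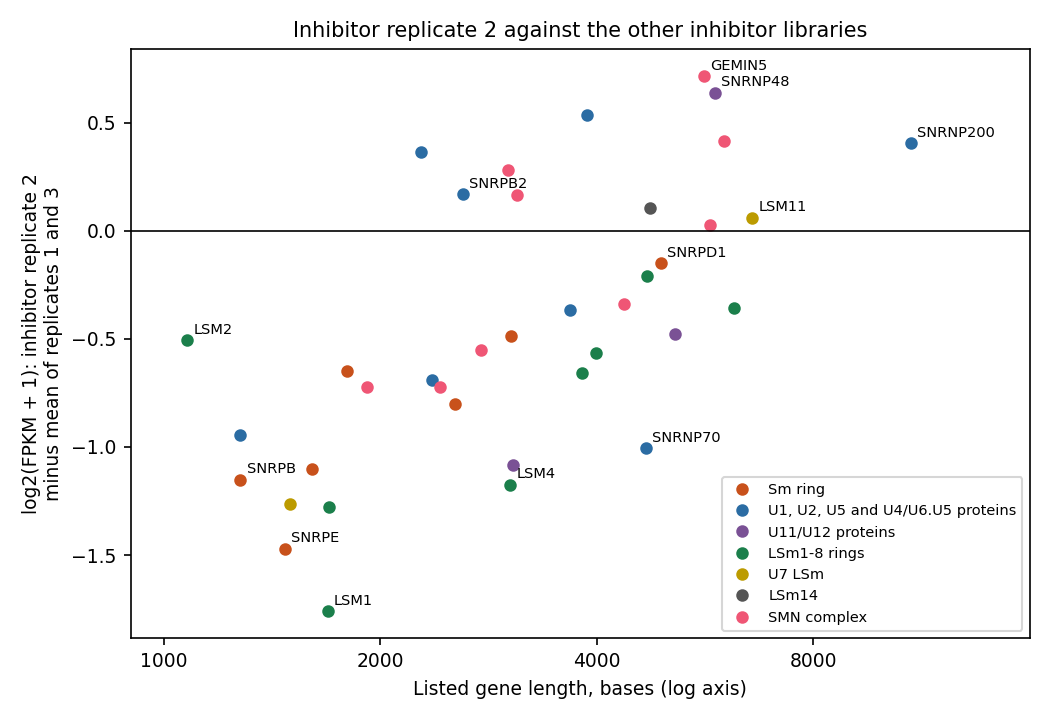
Difference of inhibitor replicate 2 from the mean of replicates 1 and 3 on the log2(FPKM + 1) scale, against listed gene length (log axis), 1 point per gene, coloured by complex. Sm and LSm genes under 3000 bases lie below 0, and longer genes lie on both sides of it, 12 of 22 below; SNRNP70 and LSM4 are low for their length.

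The partners of these genes were examined as lists of 80 genes, of which 79 were tested; 13 fell and 3 rose (16.5% and 3.8%, against 10.0% and 7.18% of all genes), with a median of −0.20. Without replicate 2 the counts were 32 and 6 (40.5% and 7.59%, against 23.1% and 17.5%). PRMT5 itself stood at 13.4, 12.8 and 12.1 FPKM in the inhibitor libraries, against 23.2, 24.6 and 26.2 FPKM in the DMSO libraries (log2 fold change −0.90, SE 0.11, limma adjusted p = 0.00493), and was called without each library in turn. The design text of the series names a knockdown, and whether one has a part in this value was not tested. WDR77 stood at 10.7, 11.6 and 13.6 FPKM in the inhibitor libraries, against 16.4, 17.6 and 17.3 FPKM in the DMSO libraries, and fell with a log2 fold change of −0.48 (limma adjusted p = 0.0397). With the length trend removed the call of WDR77 was lost (−0.34, limma adjusted p = 0.128). These were 2 of the 5 methylosome genes, and the other 3 were not called with all libraries. Without replicate 2 the count was 4 lower. The tri-snRNP proteins had the most calls, 5 lower and 0 higher of 13 (limma; 1 of the 13 lay above 0). PRPF3, a U4/U6 protein, stood at 11.4, 11.4 and 10.8 FPKM in the inhibitor libraries, against 20.8, 21.6 and 20.4 FPKM in the DMSO libraries (log2 fold change −0.85, SE 0.097, limma adjusted p = 0.00479). All inhibitor libraries lay near one another and replicate 2 did not stand apart. The helicase gene DDX23 fell by 0.78 and SART1, which joins U4/U6 to U5, fell by 0.87 on the log2 scale (limma adjusted p = 0.0113 and 0.0120); PPIH (−0.83) and USP39 (−0.54), named here to complete the count, fell too, although USP39 lost its call with the length trend removed (limma adjusted p = 0.0671). Of 10 proteins of the U2 SF3 complexes 2 fell, SF3B4 (−1.10) and SF3A1 (−0.56), with 7 lower without replicate 2.

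Counts for the remaining lists are to be read against 10.0% of all genes called lower and 7.18% called higher with all libraries, and 23.1% and 17.5% without replicate 2. Of 8 genes of snRNP export, cap formation and import 0 were called in either fit (limma; 0 by limma-voom as well), with STRAP, an SMN complex partner, the highest at 91.7 ± 10.6 FPKM with the inhibitor and 100.4 ± 6.18 FPKM in DMSO (SD, n = 3 each). Of 8 Cajal body and U6 recycling genes 0 were called with all libraries (limma) and 5 were lower without replicate 2; NOLC1 had the highest level, at 76.7 ± 12.2 FPKM with the inhibitor and 85.2 ± 0.835 FPKM in DMSO (SD, n = 3 each). Among 19 genes of small nuclear RNA transcription and 3′ processing, SNAPC4 fell (−0.69) and SNAPC3 rose (0.65), both subunits of the complex that activates small nuclear RNA promoters. Of the U11/U12 partners ZRSR2 fell (−0.47) and RNPC3 rose (0.65), from 5; with the length trend removed ZRSR2 lost its call (limma adjusted p = 0.198). The decapping partners of the LSm1-7 ring had 2 falls among 8, PATL1 at 23.4, 24.4 and 24.2 FPKM in the inhibitor libraries, against 40.1, 40.6 and 42.5 FPKM in the DMSO libraries, and EDC4 (−0.79), and 1 rise, DCP1B (0.54). SNRPN, whose product replaces SmB in neurons, had 0 reads in all 6 libraries, where 3 reads over them would be 0.00963 FPKM, and LSM14B, the highest of the 3 other LSm genes tested, stood at 16.6 ± 4.41 FPKM with the inhibitor and 22.4 ± 1.41 FPKM in DMSO (SD, n = 3 each). Of the 16 partners called with all libraries PRMT5 and PRPF3 were called in every fit that left out 1 library, and the others were called without inhibitor replicate 2 and lost their call without DMSO replicate 1 and, in part, without other libraries (highest limma adjusted p of each, 0.0520 to 0.155 among the called).

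**Figure D5:**
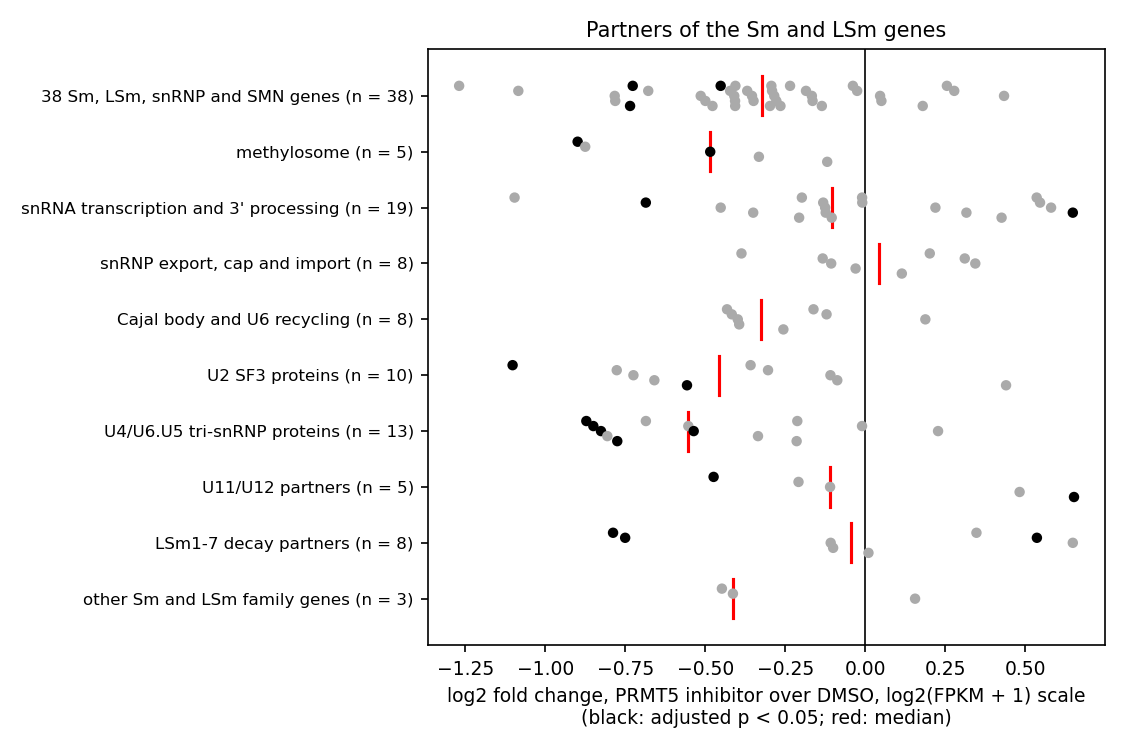
log2 fold change (inhibitor over DMSO, all libraries) of the 38 genes and of 9 lists of partners, 1 point per gene, black where adjusted p is under 0.05, red bar at the list's median. The medians of the tri-snRNP (−0.55) and methylosome (−0.48) lists lie lowest and that of the export and import list lies at 0.042.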

How the data were processed

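Per the labels' protocols the RNA kit was directional. Per the submitters' processing notes the build was hg38 (aligner, counter, strand setting and annotation were not given in the sources used here). A table of FPKM values with a length for each gene was deposited by the authors. FPKM times length was a whole multiple of 1 factor in every library, within 0.01 reads for 100% of values above 0, which gave the reads; all 38 lengths equal the exon union in GENCODE 29. The 13578 genes with a minimum of 1 FPKM in 3 of the 6 libraries were fitted as log2(FPKM + 1) with limma 3.58.1 in R 4.3.3 (trend, two-sided), with Benjamini-Hochberg adjustment and a threshold of 0.05; the code was tested on simulated data. Replicates of a group differed beyond sampling noise (chi-square per degree of freedom 2.475 or more). It was 95.2 and 98.7 for the pairs with inhibitor replicate 2, 5.18 for inhibitor replicates 1 and 3, and 2.475 to 7.315 in DMSO. The members, lists and naming rule were chosen with earlier results of these data known. Values per library are given for SNRPB, SNRPD1, SNRPD3, LSM4, members called with all libraries or without inhibitor replicate 2, and the highest and most changed member of each complex; from each partner list, up to 3 called genes with the smallest adjusted p or else the highest. Other members given by library were chosen after their values were seen. Alternatives were a pseudocount of 0.1, other filters, TPM and quantile scaling, prior settings, a replicate block, library weights, limma-voom (library sizes from the authors' scaling), removal of a loess trend on length (span 0.3), and leaving out each library. Python 3.11.15, pandas 2.3.3 and matplotlib 3.10.9 were used.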

Additional observations from a re-analysis of the deposited data

How the results depend on the processing

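The number of genes of the family called lower was 3 with all libraries, against 10.0% of all genes tested. Shares of all genes called lower follow in brackets. The number was 0 without a filter (2.76%), with quantile normalization (7.76%) and with a replicate block (6.42%), and 1 with TPM (9.04%). With the length trend removed it was 5 without (10.8%) and with (8.55%) the replicate block. It was 13 with library weights (31.6%), and 9 with the length trend removed and inhibitor replicate 2 left out (21.5%). When 1 library was left out it ran from 0 to 9 (1.94% to 23.1%). The number called higher was 0 with all libraries (limma), against 7.18% of all genes tested. It was 4 with library weights, where 3401 of all 13578 genes tested were called higher. It was 3 with replicate 2 left out and the length trend removed (19.2% of all genes), and ran from 0 to 3 leaving out 1 library. Over all genes tested the calls, 2339, were 1533 without a filter, 1505 with a filter at 5 FPKM, 1478 with the replicate block, 7697 with library weights and 5523 with replicate 2 left out and the length trend removed, and ran from 478 to 5513 leaving out 1 library. The family's median, −0.32, was −0.15 with library weights and −0.12 with replicate 2 left out and the length trend removed, and ran from −0.45 to −0.15 leaving out 1 library; it was below 0 in every setting run. The causes were not tested. TPM moved the median of all genes to −0.10.

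Replicate numbers share no stated origin, and deviations of same-numbered libraries correlated at −0.018, 0.157 and 0.248, so the replicate block is an alternative; inhibitor replicate 2 and DMSO replicate 2 correlated best with each other, as did replicates 3. Under it SNRPF, SNRPG and LSM11 had limma adjusted p = 0.0649, 0.0805 and 0.0619, and the partners WDR77, SF3A1, USP39, ZRSR2 and DCP1B 0.0659, 0.0550, 0.0700, 0.0619 and 0.0737.

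Some values near 0 changed sign. SNRNP200 was 0.14 with quantile normalization, and ran from −0.16 to 0.10 leaving out 1 library. SNRNP40 was −0.13 with library weights and −0.095 with the length trend removed without inhibitor replicate 2, and ran from −0.13 to 0.14 leaving out 1 library. SNRNP27 was 0.0036 with the length trend removed, with or without the block. LSM4 was 0.15 with quantile normalization, 0.10 with the length trend removed (with or without the block), 0.39 with that and without replicate 2, 0.37 with library weights, and ran from −0.24 to 0.35 leaving out 1 library. LSM10 was 0.14 with the length trend removed without replicate 2 and 0.15 with library weights, and ran from −0.52 to 0.14 leaving out 1 library. STRAP was 0.056 with quantile normalization and 0.038 with the length trend removed (with or without the block), and NOLC1 0.021 with quantile normalization. Of 1075 fold changes of named genes under an alternative, 915 kept direction and side of the threshold, 99 lost and 39 gained a call. At 31 reads for LSM6 or 37 for LSM1 in a library, counting error limits single values.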
